A study of Mus musculus with 11 samples.

Results

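The 119 probes described here are those whose transcripts were detected only in mouse embryonic fibroblasts (MEFs) that lack HuR. They were chosen from 45281 probes by the deposited detection p-value, which ranks a probe's signal against the negative controls of its own array. A member had a detection p of at most 0.01 on all 6 arrays of HuR KO cells and above 0.01 on all 5 arrays of HuR WT cells. The same measured values that chose the members therefore fix that they were high in HuR KO and low in HuR WT cells, so that this difference and the levels behind it are given as a description, with no test.

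HuR, encoded by Elavl1, is a mostly nuclear RNA-binding protein that binds AU-rich and U-rich elements and is best known for stabilizing the mRNAs that carry them. It also takes part in splicing, polyadenylation and mRNA export. HnRNP A1 is an abundant nuclear protein that binds nascent transcripts, influences the choice of splice sites and moves with mRNA to the cytoplasm. In RIP-Chip, complexes of an RNA-binding protein are immunoprecipitated (IP) with an antibody and the RNA they hold is measured on microarrays, beside the RNA of the extract that went into the IP.

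Nuclear RNA and RNA from hnRNP A1 IPs of nuclear extracts were hybridized to Illumina whole-genome mouse arrays, with 3 arrays each of HuR KO nuclear RNA, HuR KO IP and HuR WT IP and 2 arrays of HuR WT nuclear RNA. The MEFs were isolated from HuR WT or HuR KO embryos, no treatment is named, and the number of embryos or lines behind each genotype is not stated in the sources used. A HuR difference and a difference between cell lines cannot be told apart in this design, nor can a HuR difference and the slower growth that the methods describe for the HuR KO cells. No array of the control IgG precipitation was analysed here, so the share of an IP signal that came from unspecific binding was not tested. The tables used here do not link probe identifiers to genes, so neither the loss of Elavl1 signal nor the fibroblast identity of the cells could be checked, and the genes behind the members are not named. Several members may be probes of the same transcript.

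Between 14034 and 14878 probes were detected on a HuR KO array, and between 13737 and 16206 on a HuR WT array. Of the 11822 probes detected on all 6 HuR KO arrays, 11028 were also detected on all 5 HuR WT arrays and 119 on none of them. A further 67 were detected on 1 HuR WT array, 135 on 2, 176 on 3 and 297 on 4. Seen from the other side, the probes that no HuR WT array detected comprised 25907 that no HuR KO array detected either, 912 detected on 1 HuR KO array, 421 on 2, 216 on 3, 131 on 4 and 78 on 5. The members thus formed one end of a graded distribution. The opposite pattern, detection on all 5 HuR WT arrays and on no HuR KO array, was met by 218 probes, whose median normalized log2 intensity was 6.72 in HuR WT nuclear RNA and 6.75 in the HuR WT IP.

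The distance from the detection limit varied widely among members. For 60 of the 119 the detection p was 0 on all 6 HuR KO arrays, whereas for 13 it reached 0.00961539 on at least 1 of them, the last value inside the threshold. The lowest detection p on a HuR WT array was 0.0106838, met by 8 members, and just outside the rule 7 probes missed it through a HuR WT value of 0.00961539 and 7 others through a HuR KO value of 0.0106838. At a looser detection p of at most 0.05, 67 members were still detected on no HuR WT array, 24 on 1, 11 on 2, 9 on 3, 7 on 4 and 1 on all 5. For 52 members the absence from HuR WT cells was therefore a near miss on at least 1 array, and those 52 had a median log2 level of 6.26 in HuR KO nuclear RNA against 6.99 for the other 67.

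The deposited intensities, from which background had already been subtracted, placed the members low in HuR KO cells and near the background in HuR WT cells. The median deposited intensity of the 119 members was 61.0, 126 and 111 on the HuR KO nuclear RNA arrays and 55.2, 62.2 and 70.5 on the HuR KO IP arrays. On the same arrays the 11822 detected probes had medians of 257, 430 and 370 and of 175, 226 and 221. On the HuR WT arrays the median of the members lay between 5.41 and 7.75, and 28 to 36 of the members had a value below 0. The lowest intensity of any detected probe ranged from 14.7 to 39.1 on the HuR KO arrays and from 22.2 to 46.8 on the HuR WT arrays. After normalization these floors lay between 5.41 and 5.59 on the HuR KO arrays and between 5.18 and 5.67 on the HuR WT arrays on the log2 scale. In these bulk samples fewer cells that express a transcript and less of it per cell cannot be told apart.

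After background correction, quantile normalization over the 11 arrays and log2 transformation, the median level of the members was 6.54, 6.64 and 6.67 on the HuR KO nuclear RNA arrays and 6.87, 6.76 and 6.90 on the HuR KO IP arrays. Their medians on the 5 HuR WT arrays lay between 4.65 and 4.70. Averaged over the 3 arrays of a fraction, members ranged from 5.58 to 11.69 in nuclear RNA, with a median of 6.68 and an interquartile range of 6.14 to 7.42. In the IP they ranged from 5.56 to 12.21, with a median of 6.89 and an interquartile range of 6.31 to 7.69. The medians of all 11822 probes detected on the 6 HuR KO arrays were 8.30 and 8.29, and 107 members lay below that median in nuclear RNA and 103 in the IP. The lowest quartile of the detected probes held 82 members by nuclear level and 72 by IP level, whereas the highest quartile held 4 by either. Most members were thus weak signals, with a short tail of bright ones, 15 members exceeding a log2 level of 8 in nuclear RNA and 20 in the IP.

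The brightest member had normalized log2 intensities of 10.74, 12.20 and 12.14 in HuR KO nuclear RNA and 11.55, 12.83 and 12.24 in the HuR KO IP, and of 4.57 to 4.80 on the HuR WT arrays. Its deposited intensities of 1517, 5710 and 4741 in nuclear RNA and 1992, 6343 and 4346 in the IP stood against 2.71 to 10.3 in HuR WT cells. In both fractions replicate 1 was the lowest of the 3 arrays. In the next brightest member replicate 1 was also the lowest in both fractions, with 9.11, 10.86 and 10.95 in nuclear RNA and 9.72, 11.15 and 10.99 in the IP. The third was even across the arrays, at 10.22, 9.89 and 9.69 in nuclear RNA and 10.35, 10.23 and 10.39 in the IP, and so was the fourth, at 9.68, 9.85 and 9.48 and at 10.38, 10.22 and 10.74. The replicates of these bright members hence differed by over 2-fold for some and by much less for others.

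Because no HuR WT array detected a member at a detection p of at most 0.01, the HuR KO over HuR WT fold is given as a lower bound. The mean HuR KO level was set against, for each HuR WT array, the higher of the lowest signal of any detected probe and the member's own signal. On every HuR WT array that was the lowest detected signal for all members, so the bound follows the HuR KO level alone. The bound had a median of 2.73-fold in nuclear RNA and 2.51-fold in the IP. For the brightest member HuR KO cells were at least 88.4-fold higher in nuclear RNA and at least 99.9-fold higher in the IP. The bound exceeded 2-fold for 85 members in nuclear RNA and 76 in the IP, 4-fold for 35 and 33, and 10-fold for 8 and 11. In both fractions at once it exceeded 2-fold for 66 members, 4-fold for 28 and 10-fold for 8, while 24 members stayed under 2-fold in both. Of the 35 members above 4-fold in nuclear RNA, 28 were detected on no HuR WT array at a detection p of 0.05. The median bound was 3.40-fold in nuclear RNA and 3.17-fold in the IP among the 67 members with no such detection. It was 2.04-fold and 1.90-fold among the other 52, a difference that restates their lower HuR KO levels.

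The spread among the 3 arrays of a fraction was wider for the members than for detected probes in general. The median SD on the log2 scale was 0.31 in nuclear RNA (range 0.01 to 3.18) and 0.33 in the IP (range 0.02 to 2.64), against 0.22 and 0.29 for the 11822 detected probes. An SD over 1 was seen for 11 members in nuclear RNA and 8 in the IP, that is 9.24% and 6.72%, against 1.73% and 2.84% of the detected probes. At the other end, 47 members in nuclear RNA and 43 in the IP had an SD under 0.25, that is 39.5% and 36.1%, against 57.3% and 42.9% of the detected probes. The members lie lower than the detected probes in general, and the part of this low level in the wider spread was not tested.

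Most of the spread lay in the arrays of replicate 1. Replicates 2 and 3 differed by a median of 0.12 in nuclear RNA and 0.18 in the IP on the log2 scale, and by more than 2-fold for 1 member in nuclear RNA and for 0 in the IP. Replicate 1 lay a median of 0.50 in nuclear RNA and 0.47 in the IP away from the mean of the other two. It stood more than 2-fold apart for 24 members in nuclear RNA, of which 12 were higher and 12 lower, and for 33 in the IP, of which 14 were higher and 19 lower. These were 20.2% and 27.7% of the members, against 9.03% and 14.2% of the 11822 detected probes, and replicate 1 of HuR KO nuclear RNA also detected the fewest probes of the 6 HuR KO arrays. Replicate 1 thus stood apart over the detected probes in general, and for a larger share of the members.

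The deviation was shared by both fractions. For 91 of the 119 members replicate 1 departed in the same direction in nuclear RNA and IP, a share of 76.5% against 68.8% of the detected probes, and the Pearson correlation of the deviations was 0.86 over the 119 members and 0.66 over the 11822 detected probes. Both values share the arrays and the normalization, and the nuclear RNA and the IP of a replicate come from the same nuclear extract. Replicate 1 was more than 2-fold above the others in both fractions for 8 members and more than 2-fold below in both for 8, and for 0 members was it beyond 2-fold in opposite directions.

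The member with the largest SD had log2 intensities of 12.37, 6.82 and 6.91 in HuR KO nuclear RNA and 12.17, 7.56 and 7.61 in the IP, so that replicate 1 alone made it 1 of the 10 brightest. Another had 10.01, 6.35 and 6.20 in nuclear RNA and 9.80, 6.75 and 6.64 in the IP. The opposite pattern was shown by a member with 7.16, 9.56 and 9.63 in nuclear RNA and 8.04, 10.27 and 10.29 in the IP. In each of the 3, the array of replicate 1 was the odd value in both fractions, and the other two arrays lay close together. When the rule was applied without both replicate 1 arrays of the HuR KO cells it took in 239 probes in place of 119, the others having missed it through replicate 1.

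The ratio of IP over nuclear RNA in HuR KO cells asks how a transcript's abundance in the hnRNP A1 precipitate compared with its abundance in the extract. The rule required detection in both fractions and set no direction for this ratio. It did limit low ratios of members weak in nuclear RNA and high ratios of members weak in the IP. The detection floors of the HuR KO IP arrays lay at 5.46 to 5.47. The lowest 40 members by nuclear level, at 6.30 or below, could therefore not be over 2-fold lower in the IP. Likewise, the floors of the HuR KO nuclear RNA arrays lay at 5.41 to 5.59. The lowest quartile of the members by IP level, at 6.31 or below, could therefore not be over 2-fold higher in the IP. The median log2 ratio of the 119 members was 0.25, or 1.19-fold, and it was -0.15 when each fraction was quantile-normalized apart, a scaling that moved the median of all 16045 probes tested from -0.01 to -0.32. Relative to that median of all tested probes the members lay 0.26 higher in the first case, 0.18 higher under separate quantile normalization and 0.18 higher under median scaling. The same comparison was made in HuR WT cells for the 218 probes detected only in HuR WT cells, whose median log2 ratio of IP over nuclear RNA in HuR WT cells was 0.20 and, with fractions normalized apart, -0.17, that is 0.20 and 0.15 above the median of all 16045 probes. The ratio of the members ranged from -1.77 to 1.40, with an interquartile range of -0.05 to 0.59. The densest part of the members' distribution was the log2 interval from 0 to 0.25, with 25 members, followed by 0.25 to 0.5 with 21 and 0.5 to 0.75 with 20. Over the 11822 probes detected on the 6 HuR KO arrays the median was 0.02, and their interquartile range of -0.47 to 0.49 was wider.

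Under the joint normalization, the median ratio of the members was 0.21, 0.27 and 0.36 for pairs 1, 2 and 3, and that of the detected probes 0.04, 0.02 and 0.01. The mean ratio was above 0 for 85 members, or 71.4% against 51.1% of the detected probes, although the members' median turns negative when the fractions are normalized apart. It was above 0 in all 3 pairs for 56 members, or 47.1% against 35.6%, and below 0 in all 3 for 16, or 13.4% against 32.8%. Few members were thus lower in the IP in every pair under the joint normalization. The detected probes mostly lie at higher levels, where the detection floors limit low ratios, and high ratios too, less. The part of these limits in the differences was not tested. For 80 members, or 67.2% against 58.6% of the detected probes, the ratio lay within 1.5-fold of 1. The Pearson correlation of nuclear level and ratio was -0.03 over 119 members on the same arrays. The nuclear level is itself subtracted in the ratio, so this value cannot show whether level and ratio are related. Ordered by nuclear level and divided into 3 groups, the lowest 40 members had a median ratio of 0.18, the middle 39 of 0.15 and the highest 40 of 0.38. The 67 members with no HuR WT array at a detection p of at most 0.05 had a median of 0.37, with 50 above 0. The other 52 had a median of 0.13, with 35 above 0.

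All 119 members passed the filter for testing, which kept 16045 probes, those that all arrays of some group had detected. Called probes had a Benjamini-Hochberg adjusted p under 0.05 over all 16045 by limma and a change over 2-fold. Of the 119 members, 10 were called higher in the HuR KO IP and 2 lower, that is 8.4% and 1.68%. The background shares were 7.32% higher and 9.18% lower among all 16045 probes, and 7.44% higher and 8.78% lower among the 11822 detected on the 6 HuR KO arrays. The share called higher was close to the background, and the share called lower was below it. Under this joint normalization the lowest 40 members by nuclear level could not be called lower, because of the detection floor of the IP. In the same way, the lowest quartile of the members by IP level could not be called higher, because of the floor of nuclear RNA. The part of these limits in the 2 shares was not tested. With each fraction normalized apart the counts were 1 higher and 8 lower, a setting where 3.27% and 17.6% of all 16045 probes were called. Without HuR KO nuclear RNA replicate 1 they were 9 higher and 5 lower, where 7.52% and 9.87% of all 16045 probes were called. With the 6 HuR KO arrays alone they were 8 higher and 2 lower, where 1079 and 1408 of all 16045 probes were called. The 3 IP values all exceeded the 3 nuclear RNA values for 29 members, or 24.4% against a background of 23.5%, and all fell short of them for 11, or 9.24% against a background of 23.8%. The 2-fold requirement removed more members than the p-value. In the same model without pairing, 26 were higher and 9 lower at an adjusted p under 0.05 whatever the size of the change. These were 21.8% and 7.56% of the members, against 18.5% in each direction among the 11822 detected probes and 17.4% and 18.9% among all 16045.

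The levels in both fractions went together, with a Pearson correlation of 0.89 over the 119 members and 0.91 over the detected probes, values that share arrays and normalization. The 10 members called higher included weak and bright signals. By nuclear level 6 of them lay in the lowest quartile of the detected probes, whose low levels the offset of the normalization compresses, and for 9 of the 10 the arrays of both fractions did not overlap. The 2 called lower both came from the brightest 40 by nuclear level, and the other 107 members were not called in either direction.

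The highest ratio belonged to probe ILMN_2499264. Its log2 intensities were 6.40, 5.62 and 5.52 in HuR KO nuclear RNA and 8.002, 6.96 and 6.78 in the HuR KO IP, with replicate 1 the highest in both. No IP array overlapped a nuclear RNA array. The means of 5.84 ± 0.48 and 7.25 ± 0.66 (SD, n = 3 each) differed by a log2 ratio of 1.40, a 2.64-fold change, with a standard error of 0.32 and an adjusted p of 0.00610 by limma. In deposited intensities this weak probe ran from 37.9 to 53.6 in HuR KO nuclear RNA and from 63.7 to 141 in the HuR KO IP, and from 11.4 to 26.2 on the HuR WT arrays, where it was not detected. The call was lost under 1 of 19 alternatives, the methods' t-test with Benjamini-Hochberg adjustment.

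The second highest ratio was that of ILMN_1218799, a brighter probe with 6.90, 8.54 and 8.48 in nuclear RNA and 8.29, 9.74 and 10.02 in the IP. Here replicate 1 was the lowest in both fractions, and its IP value lay below the nuclear values of the other two replicates, so that the groups overlapped although the IP was higher within each pair. The means of 7.97 ± 0.93 and 9.35 ± 0.93 (SD, n = 3 each) gave a log2 ratio of 1.38 with a standard error of 0.48 and an adjusted p of 0.0452 by limma. With the replicate number as a block, the same ratio had an adjusted p of 1.84e-04. The call was lost under 9 of 19 alternatives: without nuclear RNA replicate 1 (log2 ratio 0.84), IP replicate 2 (1.17) or IP replicate 3 (1.04), with fractions normalized apart (1.05), without further background correction (1.44), with the 6 HuR KO arrays alone, without the filter on low signal, and by the methods' t-test with or without adjustment.

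The lowest ratio was that of ILMN_1249654, with 8.06, 8.19 and 8.39 in HuR KO nuclear RNA and 6.37, 6.76 and 6.21 in the IP. All nuclear values lay above all IP values, and the log2 ratio was -1.77 with a standard error of 0.19 and an adjusted p of 1.35e-04 by limma. ILMN_1235808 followed, with 7.85, 8.60 and 8.64 in nuclear RNA and 6.91, 6.74 and 7.06 in the IP, again without overlap. Its log2 ratio was -1.46, with a standard error of 0.22 and an adjusted p of 6.76e-04 by limma, and its call was lost under 1 of 19 alternatives, no further background correction. The smallest standard error among the members called higher was that of a probe with 8.20, 8.22 and 8.23 in nuclear RNA and 9.54, 9.49 and 9.53 in the IP. Its log2 ratio of 1.30 had a standard error of 0.13 and an adjusted p of 1.20e-04 by limma.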

How the data were processed

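The authors deposited an intensity and a detection p-value per probe and array, without normalization across arrays. Many intensities lie below 0, so background was already subtracted, by software that the sources do not name. The detection column beside the signal of HuR KO nuclear RNA replicate 3 is headed as replicate 1 and was taken by its position. Samples were grouped by their labels. Per the labels a HuR WT nuclear RNA replicate failed quality control, while the methods speak of 3 per condition. Intensities were corrected by normexp with an offset of 16, quantile-normalized and put on the log2 scale with limma 3.58.1 in R 4.3.3; the deposited values are not on the log2 scale. The offset shrinks fold changes of weak probes. One model of 4 group means was fitted to all 11 arrays, without pairing, and tested on simulated data beforehand. The simulated noise was independent between arrays, with the same SD for a probe on all 11 arrays. It held no deviation shared within an extract and no smaller spread on HuR WT arrays. The simulation could therefore not show how the model behaves where these occur. Alternatives covered background, scaling, filter, test, weights and each HuR KO array. The members and lists were chosen with earlier results of these data known, and gene lists could not be used without probe annotation. Probes named are the 2 highest and 2 lowest ratios. The number of arrays limits the precision. Same-numbered HuR KO nuclear RNA and IP arrays, which share an extract per the methods, deviated together from their group means (correlations 0.69, 0.48 and 0.58), so the numbers were taken to pair the samples. In HuR KO cells the correlations alone single out replicate 1, since nuclear RNA 2 with IP 3 gave 0.60 and nuclear RNA 3 with IP 2 gave 0.53. The pairing of replicates 2 and 3 rests on the methods. Among HuR WT arrays, nuclear RNA 1 gave -0.27 with IP 1 and 0.46 with IP 3, and nuclear RNA 2 gave 0.44 with IP 2. The correlations thus do not bear out the numbering of HuR WT replicate 1. The replicate block used the HuR WT numbers too, and its adjusted p-values depend on them.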

Additional observations from a re-analysis of the deposited data

How the results depend on the processing

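Of 212 values recomputed under alternatives, 175 kept their direction and their call, or moved by less than the spread or 1.5 times. Some of these could not change, such as the median ratio under the replicate block and the named calls without the fold threshold. The members numbered 67 with a detection p above 0.05 required in HuR WT cells, 239 without both HuR KO replicate 1 arrays and 119 to 159 with any 1 of the 11 arrays left out. Leaving out an array drops a condition of the rule, so that the number could not fall below 119. Members called higher numbered 5 with an offset of 50, 6 without further background correction, 1 with each fraction normalized apart, 5 by the methods' t-test with Benjamini-Hochberg adjustment and 26 without the fold threshold, in place of 10. Members called lower numbered 2, 1, 8, 2 and 9 in the same order, in place of 2. With 1 HuR KO array left out, members called higher numbered 8 to 14 and members called lower 2 to 5. In these settings 1085 to 1465 of all probes were called higher and 1444 to 1583 lower. All probes called higher and lower numbered 732 and 879 with the offset of 50, 524 and 2831 with fractions apart, 1506 and 1936 without further background correction, 822 and 1030 by the adjusted t-test, and 2794 and 3025 without the fold threshold, in place of 1175 and 1473. The members' median log2 ratio was -0.15 with fractions apart and 0.33 without both replicate 1 arrays. Their median level in nuclear RNA was 7.10 with the offset of 50, 6.44 without further background correction and 6.89 with fractions apart, and in the IP 7.26, 6.68 and 6.68, with 6.80 under median scaling. The median bound was 1.92-fold in nuclear RNA and 1.88-fold in the IP with the offset of 50. Without further background correction it was 4.02-fold and 3.25-fold, so its size depends on the background handling. The replicate block gave 10 higher and 2 lower members and changed no call at the 2-fold threshold among them. It left the members' ratios as they were but changed their adjusted p-values. For a member with a log2 ratio of 0.75 the adjusted p by limma went from 0.43 to 0.0036. For another, with a ratio of 1.30, it rose from 1.20e-04 to 2.11e-04. The settings for levels without further correction and without both replicate 1 arrays, for bounds, and for the probes detected only in HuR WT cells, were chosen after seeing the data. The members' low signal over background limits how far their ratios can be resolved, and the causes of these shifts were not tested.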
